A study of Rattus norvegicus with 24 samples.

Results

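The genes described here encode splicing factors and other RNA-binding proteins, read in kidney RNA of salt-sensitive rats and of 2 congenic substrains. They were chosen by name: every probe set of both arrays whose single gene symbol was Sltm or began with Rbm (Rbms included), Hnrnp or Hnrp, Srsf or Sfrs, Sf3a, Sf3b, Prpf, Snrp, Srrm, Luc7l, Celf or Cugbp, or Ddx. This gave 246 of 31142 probe sets, for 137 genes, with 149 on the array RAE230A and 97 on RAE230B. Of the genes, 72 had 1 probe set, 34 had 2, 21 had 3, 7 had 4 and 3 had 5. A filter on dim probe sets left 197 members for 126 genes among the 21799 probe sets tested, and 13 further probe sets that carried a member's symbol beside other symbols were not counted as members.

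The strains were the congenic substrains ET3x2 and ET3x1 and the inbred Dahl salt-sensitive strain SS/Jr, called S. From general knowledge of these strains, both substrains carry salt-resistant alleles of part of chromosome 3, around the endothelin 3 gene Edn3, on the genetic background of S. All 32 rats were males that ate 0.4% NaCl until 39 to 41 days of age and then 2% NaCl for 28 days, and left kidneys were taken at 67 to 69 days. RNA was pooled from 3 rats per pool in ET3x2 (pools I, J, K and L) and ET3x1 (pools E, F, G and H) and from 2 rats per pool in S (pools A, B, C and D). Each of the 12 pools was read on both Affymetrix arrays, so that 4 pools per strain are the replicates and single rats cannot be seen. Where the congenic segments end is not given in the sources used here, and each group of pools stands for 1 inbred or congenic line.

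Introns are removed from pre-mRNA by the spliceosome, in which small nuclear ribonucleoproteins (snRNPs) recognise the splice sites and the branch point. SR proteins, which carry serine and arginine repeats, and hnRNPs bind the transcript around these sites and promote or repress their use, while RBM and CELF proteins adjust splicing and mRNA decay and DEAD-box helicases remodel RNA and its protein partners. Transcripts of many splicing regulators are themselves alternatively spliced, retain introns or end at alternative sites, so that several probe sets of one gene can read different transcript forms.

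The promoters of the 3 genes below are shown because a probe set of each separated the congenic substrains from each other. They come from RefSeq on the assembly GRCr8, run from 250 bases before to 50 bases after the annotated start, and lie on the minus strand at chr10:79773380-79773679 (Luc7l3), chr3:165156186-165156485 (Rbm39) and chr8:117327657-117327956 (Rbm5). Capitals mark GC boxes (GGGCGG or its reverse complement CCGCCC) and CCAAT boxes (CCAAT or ATTGG).
Luc7l3: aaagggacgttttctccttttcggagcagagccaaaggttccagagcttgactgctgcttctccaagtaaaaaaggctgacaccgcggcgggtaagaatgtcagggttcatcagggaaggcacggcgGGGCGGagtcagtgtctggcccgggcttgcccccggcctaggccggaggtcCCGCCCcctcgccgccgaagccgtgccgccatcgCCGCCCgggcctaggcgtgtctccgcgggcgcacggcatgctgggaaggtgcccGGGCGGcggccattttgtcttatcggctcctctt
Rbm39: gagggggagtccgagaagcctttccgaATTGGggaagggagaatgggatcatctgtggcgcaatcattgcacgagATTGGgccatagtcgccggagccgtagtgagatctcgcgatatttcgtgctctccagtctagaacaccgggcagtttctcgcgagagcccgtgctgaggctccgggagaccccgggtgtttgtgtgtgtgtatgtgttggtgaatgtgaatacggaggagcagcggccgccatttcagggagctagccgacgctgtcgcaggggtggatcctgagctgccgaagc
Rbm5: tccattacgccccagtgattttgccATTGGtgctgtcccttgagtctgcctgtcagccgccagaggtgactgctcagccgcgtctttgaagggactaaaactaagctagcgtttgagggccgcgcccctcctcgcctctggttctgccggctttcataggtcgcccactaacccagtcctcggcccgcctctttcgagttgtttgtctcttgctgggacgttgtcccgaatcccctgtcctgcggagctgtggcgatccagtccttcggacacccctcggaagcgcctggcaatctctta
The Luc7l3 promoter holds 4 GC boxes and is 65.7% G and C, the Rbm39 promoter holds 2 CCAAT boxes, and the Rbm5 promoter holds 1. RefSeq promoters were matched for 121 of the 137 member genes and for 8 of the 13 genes with a called probe set between the congenic substrains; Ddx24, Ddx6, Rbms3, Sltm and Srrm2 are named only. A GC box stood in 4 of those 8 promoters, in 54.6% of 130 member promoters and in 33.1% of all 33469 promoters. The motif CCGGAAG (reverse CTTCCGG), which ETS factors bind, stood in 2 of 8, 29.2% and 8.7% of the same sets, the CCAAT box in 3 of 8, 50.8% and 37.5%, and TATAAA (reverse TTTATA) in 0 of 8, 7.7% and 14.2%. Such matches describe letters within these windows and are not binding sites.

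The values are deposited log2 signals, in which 1 unit is a doubling, and signals of different probe sets are not read as relative amounts of RNA. The tissue check gave high signals for the thick limb gene Umod, at 14.29 to 14.47 over the pools, for the proximal tubule gene Lrp2, at 13.28 to 13.58, and for the collecting duct gene Aqp2, at 12.43 to 12.78. The adrenal gene Cyp11b1 lay at 5.69 to 5.99, and the podocyte gene Nphs1 at 6.12 to 6.52 and 6.84 to 7.68 on its 2 probe sets, under or near the filter level of 7.52 for RAE230A. Some pools stood apart on beta-actin, whose 5′ minus 3′ signal is a sign of how complete the RNA was. On RAE230A it was −1.14 in ET3x2 pool J and −1.27 in S pools A and B, and −1.66 to −2.10 in the other 9 pools. The lowest was S pool D, at −2.10 on RAE230A and −2.11 on RAE230B. Leaving out A and B therefore leaves S with pools C and D. The GAPDH 5′ minus 3′ signal did not set A and B apart. On RAE230A it was −0.64 in J, −0.81 in A and −0.75 in B, beside −0.71 in F and −1.04 in G. On RAE230B it was −0.61 in J, −0.87 in A and −0.90 in B, beside −0.62 in F. Over the tested members the median deviation from the mean of all pools was highest in ET3x1 pool F, at 0.10, and lowest in S pool D, at −0.15. Calls that hang on these pools are given with and without them. In whole-kidney RNA, fewer cells of a type and less RNA per cell cannot be told apart.

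Between the congenic substrains, 15 member probe sets of 13 genes fell in ET3x2 relative to ET3x1 and none rose: Luc7l3, Srrm1 and Srrm2 among the SR-related proteins, the SR protein Srsf11, the branch-point factor Sf3b1, Rbm5, Rbm39 and Rbms3, Celf1, Sltm, and the helicases Ddx6, Ddx24 and Ddx27. A probe set was called at an adjusted p under 0.05 in limma, adjusted over all probe sets of its array. The 15 are 7.61% of the 197 tested members, against 1.48% of all tested probe sets, and 1.39% of all were called lower. The members were chosen with earlier results of these data known. This share and those below therefore describe the members and do not test them as a group. In ET3x1 relative to S, 5 members rose (Luc7l3, Srrm1, Sltm, Srsf11 and Rbm39) and none fell, which is 2.54% against 0.440% of all tested probe sets and 0.431% called higher. In ET3x2 relative to S, 3 members fell (Rbm5, Rbms3 and Celf1) and none rose, which is 1.52% against 0.344% of all and 0.280% called lower. This last count is unstable: it was 1 to 10 when 1 pool was left out (10 without S pool D), and with array weights 14 fell and 1 rose. Counts of 0 in the other direction are by limma alone. At an unadjusted p under 0.05 there were 41, 33 and 31 members in the 3 comparisons, in the order just given, which is 20.8%, 16.8% and 15.7% of the tested members against 13.1%, 11.8% and 10.9% of all tested probe sets. Each strain enters 2 of the comparisons, so that they share pools and are not independent.

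Over all tested members the differences were small. The median log2 difference of ET3x2 against ET3x1 was −0.031 over the 197 members and 0.032 over all tested probe sets, and 88 members (44.7%) were positive, against 60.8% of all. For ET3x2 against S the medians were −0.039 and 0.025, with 76 members (38.6%) positive against 59.0% of all. For ET3x1 against S they were −0.0035 and −0.0047, with 94 members (47.7%) positive against 48.4% of all. The median size of a member's log2 difference, whatever its sign, was 0.12, 0.096 and 0.097 in the same order. In the plot of differences by role some called probe sets lie within the range of uncalled ones. For ET3x2 against ET3x1, Ddx27 was called at −0.27 on 1385471_at, and Hnrnpa1 was not called at −0.67 on 1372693_at. The 49 members under the filter level had means of 4.43 to 7.42 over the pools and were not tested.

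**Figure D1:**
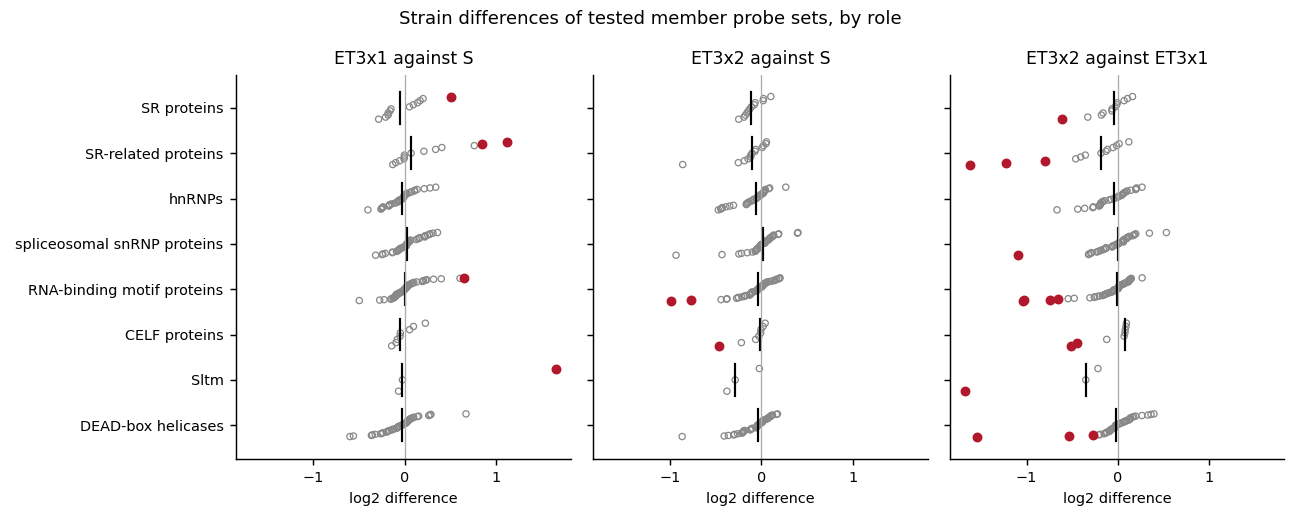
Log2 differences of the 197 tested member probe sets, by the role of the protein, in the 3 comparisons (the strain named first minus the other). Each circle is a probe set, filled red circles passed an adjusted p under 0.05 in limma, and the black bar is the median of the role. Medians lie near 0 in most rows, while single probe sets reach −1.68 in ET3x2 against ET3x1 and 1.65 in ET3x1 against S.

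Among the SR-related proteins, which bridge splicing factors at exons and in nuclear speckles, 3 of 13 tested probe sets fell in ET3x2 relative to ET3x1, 2 rose in ET3x1 relative to S, and none was called between ET3x2 and S, where 1 had an unadjusted p under 0.05. Luc7l3 encodes a relative of a yeast U1 snRNP protein. Its probe set 1382957_at read 7.14, 7.05, 6.88 and 7.05 in the ET3x2 pools, 8.16, 8.08, 8.45 and 8.32 in the ET3x1 pools and 7.24, 7.28, 6.89 and 7.09 in the S pools. All 4 ET3x1 pools lay above all other pools, and ET3x2 and S overlapped. The lowest ET3x2 and S pools, at 6.88 and 6.89, lay just above the filter level of 6.85 for RAE230B. The log2 difference was −1.22 (SE 0.099, adjusted p = 4.1e-05, 2.34-fold lower) for ET3x2 against ET3x1, 1.12 (SE 0.099, adjusted p = 9.9e-05, 2.18-fold higher) for ET3x1 against S and −0.10 (adjusted p = 0.776) for ET3x2 against S.

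Srrm1, a coactivator of splicing from exonic enhancers, was also highest in ET3x1, on 1377914_at. It read 8.66, 8.29, 8.48 and 8.53 in the ET3x2 pools, 9.12, 9.03, 9.58 and 9.42 in the ET3x1 pools and 8.43, 8.48, 8.41 and 8.42 in the S pools. The S pools differed by less than 0.10 among themselves, and every ET3x1 pool lay above every other pool. Its log2 difference was −0.80 (SE 0.11, adjusted p = 0.00178) for ET3x2 against ET3x1 and 0.85 (SE 0.11, adjusted p = 0.00271) for ET3x1 against S.

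Srrm2 encodes a very large scaffold protein of nuclear speckles and active spliceosomes. On 1390048_at it read 10.20, 10.20, 9.75 and 10.21 in the ET3x2 pools, 11.66, 11.54, 11.95 and 11.70 in the ET3x1 pools and 11.23, 11.18, 10.90 and 10.47 in the S pools. None of the 3 strains overlapped another, and S lay between the congenic substrains. ET3x2 was 3.08-fold lower than ET3x1 (log2 difference −1.62, SE 0.16, adjusted p = 0.00016). Against S the log2 differences were −0.86 for ET3x2 (adjusted p = 0.0523) and 0.76 for ET3x1 (adjusted p = 0.0795), and neither was called. Without ET3x2 pool J and S pools A and B, which leaves S pools C and D, ET3x1 against S was 1.02 (adjusted p = 0.0141). With the same pools left out, ET3x2 against S was −0.64 (adjusted p = 0.294). Without S pool D, ET3x2 against S was −1.02 (adjusted p = 0.00475). Of 19 alternatives, 1 called ET3x1 against S (highest adjusted p 0.281) and 7 called ET3x2 against S (highest adjusted p 0.294). Luc7l, a relative of Luc7l3, gave the lowest difference of ET3x1 against S in the group, at −0.13 on 1372838_at (adjusted p = 0.478).

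**Figure D2:**
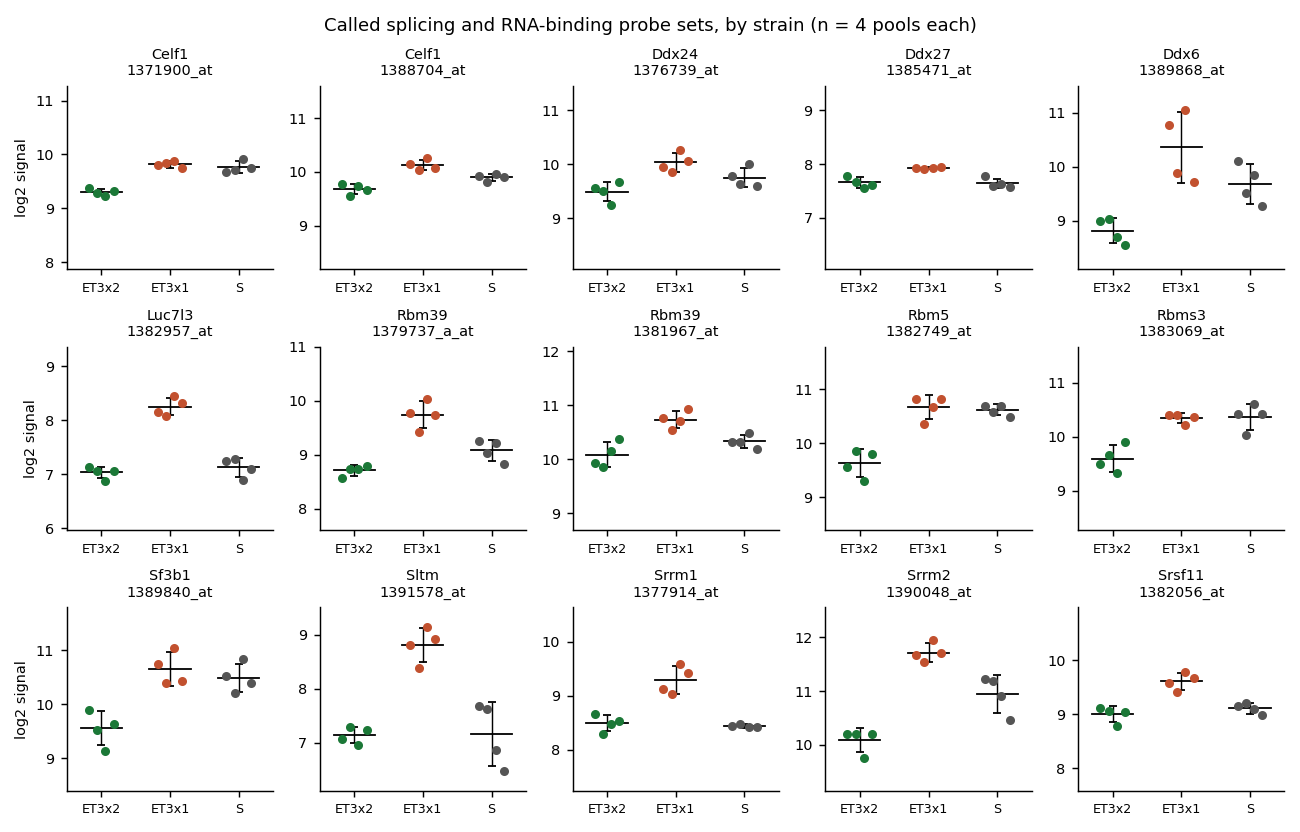
Log2 signal of the 15 member probe sets called between ET3x2 and ET3x1, 1 panel each, with all panels drawn over the same height of log2 units. Points are pools (4 per strain), horizontal bars are strain means and whiskers are 1 SD. In every panel the 4 ET3x2 pools lie below the 4 ET3x1 pools, and the place of S differs from panel to panel. The panels were chosen by their call in this comparison. Every ET3x2 pool lay below every ET3x1 pool in 26 of the 197 tested members and in 912 of all 21799 tested probe sets. Every ET3x2 pool lay above in 5 and 1082 of them.

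Of the SR proteins, which bind exonic enhancers and recruit snRNPs, 1 of 12 tested probe sets was called, in Srsf11. On 1382056_at it read 9.12, 9.06, 8.78 and 9.05 in the ET3x2 pools, 9.58, 9.41, 9.78 and 9.68 in the ET3x1 pools and 9.15, 9.21, 9.09 and 8.98 in the S pools. The ET3x1 pools lay above all others. On the log2 scale the difference was −0.61 (SE 0.091, adjusted p = 0.00316) for ET3x2 against ET3x1 and 0.50 (SE 0.091, adjusted p = 0.0230) for ET3x1 against S. The call against S was lost without ET3x2 pool J and S pools A and B (log2 difference 0.57, adjusted p = 0.0528), when C, D, E, G or H was left out, and with only ET3x1 and S in the fit, where adjusted p reached 0.0768. The brightest Srsf11 probe set, 1368212_at, had −0.33 for ET3x2 against ET3x1 (adjusted p = 0.425). Srsf2, Srsf6 and Srsf9 had log2 differences of ET3x2 against ET3x1 between −0.07 and 0.10, and the highest was 0.16 for Srsf10 on 1382052_at (adjusted p = 0.773).

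Of 37 tested probe sets of spliceosomal snRNP proteins, 1 was called, in ET3x2 against ET3x1. It belongs to Sf3b1, the U2 snRNP subunit that holds the branch point. On 1389840_at it read 9.90, 9.53, 9.14 and 9.64 in the ET3x2 pools, 10.75, 10.39, 11.05 and 10.43 in the ET3x1 pools and 10.53, 10.21, 10.83 and 10.39 in the S pools. ET3x2 lay below both other strains, which overlapped. Its log2 difference was −1.10 (SE 0.18, adjusted p = 0.00798) against ET3x1 and −0.93 (adjusted p = 0.0523) against S, and ET3x1 differed from S by 0.17 (adjusted p = 0.704). With the filter on dim probe sets at the 50th percentile the difference against S was called (adjusted p = 0.0398), as it was without pools D, G or J in turn (adjusted p = 0.0364, 0.0367 and 0.0439). In all, 6 of 19 alternatives called it, and the highest adjusted p was 0.232. Without pools A, B and J together it was −1.04 and not called (adjusted p = 0.177).

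The other extremes among snRNP proteins did not pass. Sf3b5, a small subunit of the same complex, read 10.41, 10.10, 10.47 and 10.33 in the ET3x2 pools on 1371324_at, 9.99, 9.88, 9.63 and 9.70 in the ET3x1 pools and 9.75, 9.68, 10.14 and 10.16 in the S pools. ET3x2 lay above ET3x1 in all pools, with a log2 difference of 0.53 (SE 0.13, adjusted p = 0.0670). It was called in 4 of 19 alternatives, and the highest adjusted p was 0.229. Among the 4 were the fits without pools A, B and J together (0.61, adjusted p = 0.0132) and without pool D (0.53, adjusted p = 0.0405). Snrpd2, of the Sm ring around the snRNA, had 0.40 for ET3x2 against S (adjusted p = 0.360). Prpf4b, a kinase of the spliceosome, had 0.36 on 1397203_at (adjusted p = 0.293) and −0.32 on 1382646_at (adjusted p = 0.695) for ET3x1 against S.

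None of the 31 tested hnRNP probe sets was called in limma in any comparison, and 6, 2 and 6 had an unadjusted p under 0.05 in ET3x2 against ET3x1, ET3x1 against S and ET3x2 against S. The lowest log2 difference of ET3x2 against ET3x1 was −0.67 for Hnrnpa1 on 1372693_at (SE 0.19, adjusted p = 0.123), a protein that represses splice sites. It read 7.74, 8.09, 8.40 and 8.76 in the ET3x2 pools, 9.09, 8.76, 8.75 and 9.06 in the ET3x1 pools and 8.77, 8.85, 8.79 and 8.13 in the S pools. ET3x2 spread over more than 1 unit and touched ET3x1 at its top. Hnrnph1, which binds runs of G, had −0.47 for ET3x2 against S on 1367666_at (SE 0.13, adjusted p = 0.201), and its relative Hnrnpf had −0.40 for ET3x1 against S (adjusted p = 0.409), which was −0.13 without pools A, B and J. Hnrnpa1 on 1375612_at had the highest difference of ET3x1 against S in the group, at 0.34 (adjusted p = 0.251).

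Of 51 tested probe sets of RNA-binding motif proteins, 4 fell in ET3x2 relative to ET3x1, 2 fell in ET3x2 relative to S and 1 rose in ET3x1 relative to S. Rbm5 regulates the splicing of apoptosis genes. On 1382749_at it read 9.56, 9.85, 9.30 and 9.81 in the ET3x2 pools, 10.82, 10.35, 10.67 and 10.82 in the ET3x1 pools and 10.70, 10.58, 10.70 and 10.49 in the S pools. The ET3x2 pools lay below all others, and ET3x1 and S overlapped. The log2 difference was −1.04 (SE 0.13, adjusted p = 0.000763, 2.05-fold lower) against ET3x1 and −0.99 (SE 0.13, adjusted p = 0.00612, 1.98-fold lower) against S.

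Rbms3, which binds A- and U-rich RNA in the cytoplasm, was also lowest in ET3x2, on 1383069_at. It read 9.49, 9.67, 9.33 and 9.90 in the ET3x2 pools, 10.40, 10.41, 10.22 and 10.37 in the ET3x1 pools and 10.43, 10.03, 10.61 and 10.42 in the S pools. All ET3x2 pools lay below the others. On the log2 scale the difference was −0.75 (SE 0.13, adjusted p = 0.00771) against ET3x1 and −0.77 (SE 0.13, adjusted p = 0.0200) against S. The call against S was lost on leaving out pool A, C, I or K and with only ET3x2 and S in the fit, where adjusted p reached at most 0.0823.

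Rbm39, a splicing factor related to the large U2AF subunit, had 4 tested probe sets with differing results. On 1379737_a_at it read 8.57, 8.73, 8.74 and 8.79 in the ET3x2 pools, 9.77, 9.42, 10.04 and 9.73 in the ET3x1 pools and 9.25, 9.04, 9.21 and 8.83 in the S pools. No strain overlapped another, and S lay between the congenic substrains. The log2 difference was −1.03 (SE 0.12, adjusted p = 0.000987) for ET3x2 against ET3x1, 0.65 (SE 0.12, adjusted p = 0.0411) for ET3x1 against S and −0.38 (adjusted p = 0.264) for ET3x2 against S. The call of ET3x1 against S was lost without pools A, B and J together (0.71, adjusted p = 0.0998), after quantile normalisation, with only ET3x1 and S in the fit, and on leaving out any one pool other than F and J, where adjusted p reached 0.148.

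The second called probe set of Rbm39, 1381967_at, read 9.93, 9.86, 10.16 and 10.37 in the ET3x2 pools, 10.76, 10.54, 10.71 and 10.93 in the ET3x1 pools and 10.32, 10.32, 10.49 and 10.19 in the S pools. ET3x2 lay below ET3x1 in all pools (log2 difference −0.65, SE 0.12, adjusted p = 0.0160), and the call was lost on leaving out E, G, I or K, where adjusted p reached 0.0659. The probe sets 1398993_at and 1399101_at instead differed by 0.06 and 0.00 between ET3x2 and ET3x1 (adjusted p = 0.920 and 0.998). On 1398993_at the pools read 10.34, 11.03, 10.56 and 10.46 in ET3x2, 10.74, 10.78, 10.11 and 10.55 in ET3x1 and 11.37, 11.31, 10.93 and 10.54 in S. The highest were ET3x2 pool J and S pools A and B, the pools with the least negative actin signal; the part of RNA completeness in this was not tested. For ET3x1 against S the same probe set had −0.50 (adjusted p = 0.304), the lowest of its role and opposite in sign to the called 1379737_a_at, and −0.19 without pools A, B and J. Other extremes that did not pass were Rbm8a, of the exon junction complex, at 0.20 for ET3x2 against S (adjusted p = 0.338), and Rbm38, which stabilises p21 mRNA, at 0.26 for ET3x2 against ET3x1 (adjusted p = 0.267).

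CELF proteins bind G- and U-rich RNA and act on splicing and on mRNA decay. Of 8 tested probe sets, 2 fell in ET3x2 relative to ET3x1 and 1 in ET3x2 relative to S, all of Celf1, which lies on chromosome 3. On 1371900_at it read 9.37, 9.28, 9.23 and 9.33 in the ET3x2 pools, 9.80, 9.85, 9.88 and 9.74 in the ET3x1 pools and 9.68, 9.71, 9.92 and 9.74 in the S pools. All ET3x2 pools lay below the others, within a narrow range. Its log2 difference was −0.51 (SE 0.074, adjusted p = 0.00406) against ET3x1 and −0.46 (SE 0.074, adjusted p = 0.0374) against S. The second was lost without pools A, B and J together (−0.52, adjusted p = 0.113), without A, B, C, E, I, K or L in turn, without a filter on signal and with only ET3x2 and S in the fit, where adjusted p reached 0.197.

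On Celf1 1388704_at the pools read 9.78, 9.55, 9.74 and 9.67 in ET3x2, 10.15, 10.04, 10.25 and 10.08 in ET3x1 and 9.93, 9.81, 9.96 and 9.91 in S, with no overlap between strains. ET3x2 was lower than ET3x1 by a log2 difference of −0.44 (SE 0.077, adjusted p = 0.0144), and the call was lost without E or G, where adjusted p reached 0.0645. The differences from S, −0.22 for ET3x2 and 0.23 for ET3x1, had adjusted p of 0.312 and 0.251. The other 3 tested probe sets of Celf1 had log2 differences of −0.12 (1393029_at), 0.08 (1393257_at) and 0.08 (1393568_at) between ET3x2 and ET3x1. Its relative Celf2 had 0.09 on 1389867_at (adjusted p = 0.607).

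Sltm, which resembles the scaffold attachment factors and modulates transcription, gave the largest differences of all members in both comparisons that involve ET3x1, on 1391578_at. It read 7.07, 7.29, 6.96 and 7.23 in the ET3x2 pools, 8.81, 8.38, 9.14 and 8.93 in the ET3x1 pools and 7.69, 7.62, 6.86 and 6.48 in the S pools. Every ET3x1 pool lay above every other pool, and within S pools A and B lay above C and D, the lowest of which was under the filter level of 6.85 for RAE230B. The log2 difference was −1.68 (SE 0.24, adjusted p = 0.00213, 3.20-fold lower) for ET3x2 against ET3x1 and 1.65 (SE 0.24, adjusted p = 0.00611, 3.15-fold higher) for ET3x1 against S. Without pools A, B and J the difference from S was 2.15 (adjusted p = 0.000346). Its other 2 probe sets had −0.35 (1381175_at, adjusted p = 0.159) and −0.22 (1388820_at, adjusted p = 0.352) between ET3x2 and ET3x1.

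Of 42 tested probe sets of DEAD-box helicases, 3 fell in ET3x2 relative to ET3x1 and none was called against S, where 6 had an unadjusted p under 0.05 in each comparison. Ddx6 represses translation and promotes decapping in P-bodies. On 1389868_at it read 8.99, 9.04, 8.69 and 8.55 in the ET3x2 pools, 10.78, 9.89, 11.06 and 9.71 in the ET3x1 pools and 10.11, 9.52, 9.85 and 9.27 in the S pools. ET3x2 lay below both other strains, and within ET3x1 pools E and G stood more than 0.8 above F and H. ET3x2 was 2.90-fold lower than ET3x1 (log2 difference −1.54, SE 0.26, adjusted p = 0.0132), and the call was lost without E or K, where adjusted p reached 0.0597. Against S the difference of ET3x2 was −0.87 (adjusted p = 0.226) and that of ET3x1 was 0.67 (adjusted p = 0.302). The beta-actin 5′ minus 3′ signal on RAE230A was −1.98 in E and −2.02 in G, beside −1.66 in F and −1.69 in H. Pool G was also the highest ET3x1 pool on called probe sets of Luc7l3, Srrm1, Srrm2, Srsf11, Sf3b1, Celf1, Sltm, Rbm39 and Ddx24. On those of Rbm5, Rbms3 and Ddx27, and on Rbm39 1381967_at, it was not. Whether RNA completeness played a part was not tested.

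The other called helicases act in the nucleolus in ribosome assembly. Ddx24 read 9.56, 9.50, 9.25 and 9.66 in the ET3x2 pools on 1376739_at, 9.95, 9.86, 10.26 and 10.06 in the ET3x1 pools and 9.78, 9.64 and 9.59 in S pools A, B and D, with pool C the highest. ET3x2 lay below ET3x1 and overlapped S (log2 difference −0.54 against ET3x1, SE 0.12, adjusted p = 0.0391). Ddx27, on chromosome 3, read 7.78, 7.67, 7.56 and 7.62 in the ET3x2 pools on 1385471_at, 7.93, 7.90, 7.93 and 7.95 in the ET3x1 pools and 7.77, 7.59, 7.63 and 7.58 in the S pools. The ET3x1 pools were tightly grouped above all others, with −0.27 (SE 0.061, adjusted p = 0.0339) for ET3x2 against ET3x1 and 0.29 (SE 0.061, adjusted p = 0.0506) for ET3x1 against S. Both calls hung on single pools: Ddx24 lost its call on leaving out A, E, G, H, I, J or K (highest adjusted p 0.171) and Ddx27 without C, E, F, G, H, J, K or L (highest adjusted p 0.144), and without A, B and J together they had adjusted p of 0.0766 and 0.0595.

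Several uncalled members were highest in the same 3 pools of different strains. How many did so was not counted, and those named here are examples. Ddx3x, an X-linked helicase of translation, had the lowest difference of ET3x1 against S among helicases on 1386535_at, at −0.60 (SE 0.32, adjusted p = 0.564). It read 7.16, 8.17, 7.08 and 6.95 in the ET3x2 pools, 7.06, 7.16, 6.62 and 6.95 in the ET3x1 pools and 8.08, 8.17, 7.22 and 6.70 in the S pools. Pools J, A and B were the 3 highest, as they were for the actin 5′ minus 3′ signal, and without them the difference was −0.02. Prpf4b on 1382646_at and Srsf10 on 1382052_at also had their 3 highest values in these pools, at 7.41 in J, 7.65 in A and 7.77 in B and at 7.56 in J, 7.93 in A and 7.62 in B, and their differences of −0.32 and −0.28 for ET3x1 against S became 0.13 and 0.04 without pools A, B and J. The part of RNA completeness in these values was not tested.

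In some genes the probe sets did not move alike. Of the 126 tested genes, 50 had several tested probe sets, which gave 71 pairs of a probe set with the brightest probe set of its gene, among 3879 pairs over all genes. The difference between the 2 probe sets was tested within pools in limma. Between ET3x2 and ET3x1, 11 member pairs of 10 genes were called (15.5%), against 3.12% of all pairs. For ET3x1 against S, 4 pairs were called (5.63%), against 1.26% of all pairs, and for ET3x2 against S none was called in limma, against 0.206% of all pairs. At an unadjusted p under 0.05 that comparison had 16 of the 71 member pairs and 310 of all 3879. All 13 genes called between the congenic substrains had several tested probe sets, in none were all of them called, and in 5 at least 1 probe set had the opposite sign. These gene counts were not taken over all genes. In that comparison the 2 probe sets of a pair had opposite signs in 43.7% of member pairs and in 39.0% of all pairs.

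**Figure D3:**
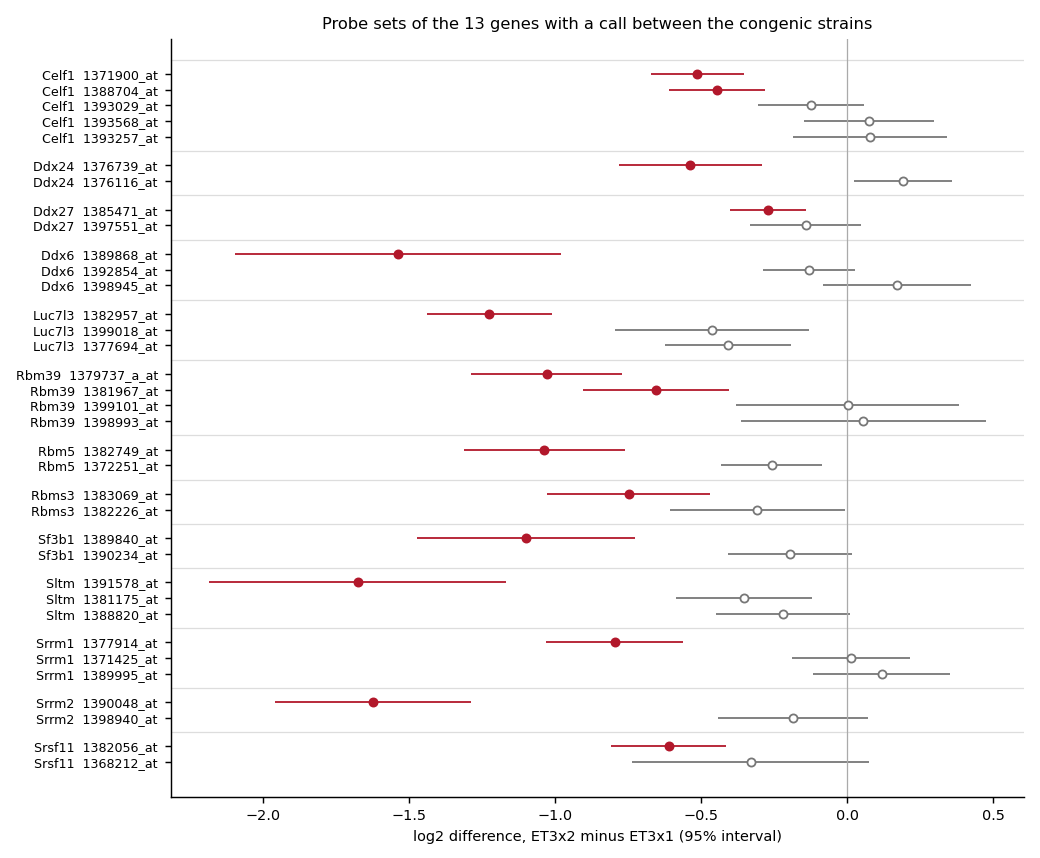
Log2 difference of ET3x2 minus ET3x1 for every tested probe set of the 13 genes with a call. Points are estimates and lines are 95% intervals from limma, filled red points passed an adjusted p under 0.05 and open points did not. Each gene has at least 1 open point nearer to 0 than its red points, such as Srrm1 at 0.01 and 0.12 beside −0.80.

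In Srrm2 the called probe set 1390048_at differed by −1.62 between ET3x2 and ET3x1, and 1398940_at by −0.19. On the second the pools read 9.69, 9.37, 9.70 and 10.03 in ET3x2, 9.93, 10.02, 9.86 and 9.73 in ET3x1 and 9.69, 9.92, 9.92 and 9.72 in S, so that all strains overlapped. The difference between the probe sets was 1.44 (1398940_at minus 1390048_at, SE 0.19, adjusted p = 0.00104) and stayed past the threshold in all 18 alternatives. In Srrm1 the brightest probe set 1371425_at read 10.05, 10.04, 9.84 and 9.98 in ET3x2, 9.98, 9.97, 10.11 and 9.81 in ET3x1 and 10.14, 10.08, 9.84 and 9.82 in S, and the 3 strains overlapped. The pair difference, 1377914_at minus 1371425_at, was called in both comparisons that involve ET3x1, at −0.81 for ET3x2 against ET3x1 (adjusted p = 0.00477) and 0.85 for ET3x1 against S (adjusted p = 0.00549).

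In Sltm the difference of 1391578_at from the brightest probe set 1388820_at was −1.46 for ET3x2 against ET3x1 (SE 0.21, adjusted p = 0.00128) and 1.72 for ET3x1 against S (SE 0.21, adjusted p = 0.000634). On 1388820_at the pools read 9.99, 10.12, 9.83 and 9.83 in ET3x2, 10.28, 10.22, 10.17 and 9.97 in ET3x1 and 10.38, 10.37, 10.19 and 9.97 in S. ET3x1 and S spanned much the same range there, while on 1391578_at they did not overlap. In Ddx6 both other probe sets differed from 1389868_at between ET3x2 and ET3x1, by 1.71 (1398945_at, adjusted p = 0.00503) and 1.41 (1392854_at, adjusted p = 0.00927), and their own log2 differences were 0.17 and −0.13.

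In Rbm5, Ddx24 and Sf3b1 the pair differences between ET3x2 and ET3x1 were −0.78 (1382749_at minus 1372251_at, adjusted p = 0.00303), 0.73 (1376116_at minus 1376739_at, adjusted p = 0.0117) and −0.90 (1389840_at minus 1390234_at, adjusted p = 0.0211). The brightest Rbm5 probe set 1372251_at lay in the same direction as the called one: it read 10.63, 10.71, 10.60 and 10.64 in ET3x2, 10.92, 10.86, 10.80 and 11.03 in ET3x1 and 11.13, 11.13, 10.97 and 10.87 in S. All ET3x2 pools were the lowest there too, with −0.26 against ET3x1 (adjusted p = 0.15) and −0.38 against S (adjusted p = 0.0942). Rbm5 therefore had one direction on both probe sets and a difference in size that passed the test. The pair of Ddx24 ran the other way, with 0.19 on 1376116_at (adjusted p = 0.262) beside −0.54.

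Luc7l3 and Rbm39 each had a pair called in both comparisons that involve ET3x1. For Luc7l3, 1382957_at minus 1399018_at was −0.76 for ET3x2 against ET3x1 (adjusted p = 0.0323) and 0.91 for ET3x1 against S (adjusted p = 0.0206). All 3 Luc7l3 probe sets had the same signs: 1399018_at had −0.46 (adjusted p = 0.180) and 1377694_at had −0.41 (adjusted p = 0.0593) for ET3x2 against ET3x1. For Rbm39, 1379737_a_at minus 1398993_at was −1.08 (adjusted p = 0.0198) and 1.15 (adjusted p = 0.0231) in the same comparisons. The pair of Hnrnpa1, 1372693_at minus 1387872_at, was −0.77 for ET3x2 against ET3x1 (adjusted p = 0.0437) although neither probe set was called. These were the less stable pairs: Luc7l3 lost its call in 7 of 17 alternatives for ET3x2 against ET3x1 and in 5 of 17 for ET3x1 against S, Rbm39 in 2 and 7 of 18, Hnrnpa1 in 12 of 18 and Sf3b1 in 3 of 18. Where in its transcript each probe set lies was not analysed here.

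**Figure D4:**
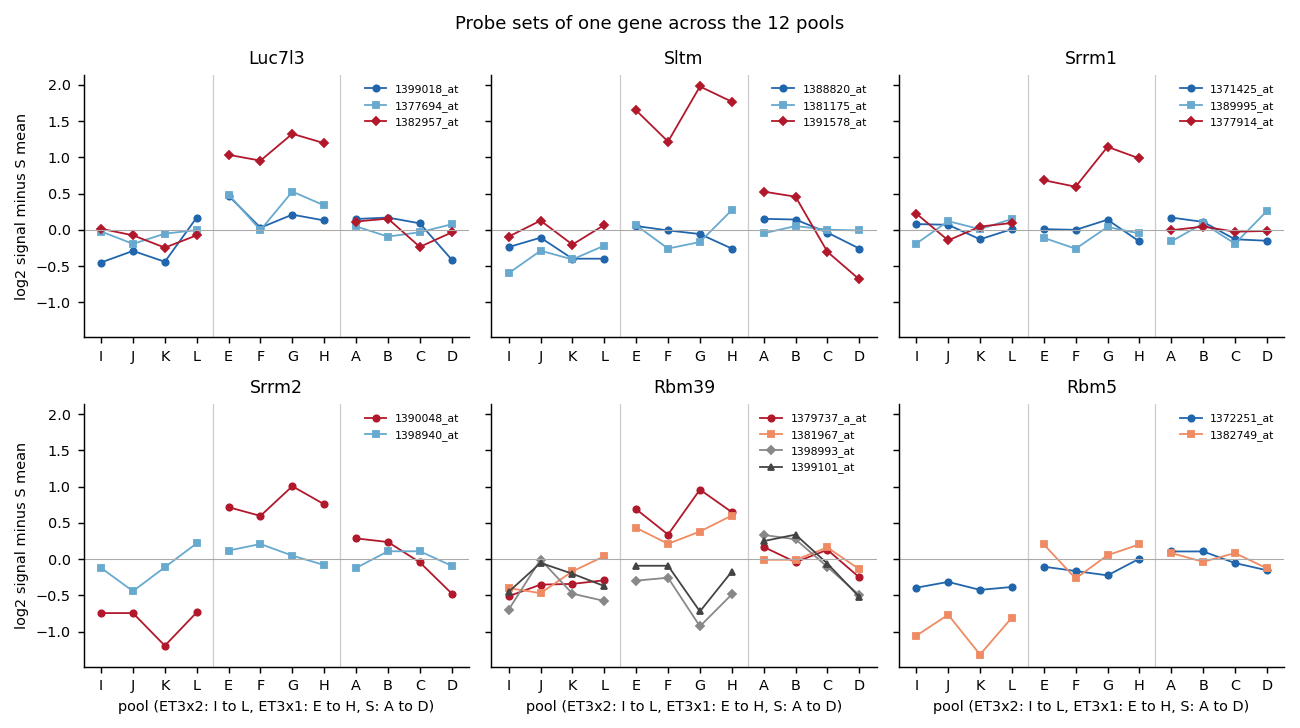
Log2 signal minus the S mean for every tested probe set of 6 genes, in the 12 pools (ET3x2 pools I to L, then ET3x1 pools E to H, then S pools A to D; lines join the points of a probe set and pools have no order within a strain). In Luc7l3, Sltm and Srrm1 the ET3x1 pools of 1 probe set stand about 0.6 or more above the S mean, higher than those of the other probe sets. In Srrm2 and Rbm5 the ET3x2 pools of 1 probe set lie 0.7 or more below it.

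The congenic segments lie on chromosome 3, where 15 member genes had 31 probe sets, 27 of them tested. Of these, 5 were called in ET3x2 against ET3x1 (18.5%), against 10 of 170 members elsewhere (5.88%) and 2.04% of all tested probe sets with a symbol on chromosome 3. They are the called probe sets of Celf1, Rbm39 and Ddx27. In ET3x1 against S, 1 of the 27 on chromosome 3 was called (Rbm39, 3.70%) and 4 of 170 elsewhere (2.35%). Of all tested probe sets with a symbol on chromosome 3, 0.765% were called there. In ET3x2 against S, 1 of the 27 was called (Celf1, 3.70%) and 2 of 170 elsewhere (1.18%), against 0.425% of all on chromosome 3. On GRCr8 the member genes lie in the order Ddx31, Rbm18, Rbm43, Rbms1, Hnrnpa3, Rbm45, Celf1, Snrpb, Snrpb2, Rbm12, Rbm39, Srsf6, Ddx27, Rbm38 and Prpf6, with Edn3 between Rbm38 and Prpf6. Most called members, Luc7l3, Srrm2, Rbm5, Sltm and Sf3b1 among them, therefore lie on other chromosomes.

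The uncalled members on chromosome 3 stayed close between the congenic substrains. Rbm38 and Prpf6, the members on either side of Edn3, had log2 differences of 0.26 (adjusted p = 0.267) and −0.05 (adjusted p = 0.771) for ET3x2 against ET3x1. Snrpb, a core Sm protein, had 0.16 (adjusted p = 0.424), and Snrpb2, of the U2 snRNP, had −0.13 (adjusted p = 0.551). Srsf6 had 0.07 and −0.01 on its 2 tested probe sets, and Hnrnpa3 had −0.19 to 0.01 on its 4. Ddx31, Rbm12, Rbm18 and Rbm45 lay between −0.11 and 0.12, and Rbm43 and Rbms1 lay under the filter level. On the second probe set of Ddx27, 1397551_at, the difference was −0.14 (adjusted p = 0.571), in the direction of the called one.

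Genes of the splicing pathway that the naming rule leaves out were read beside the members. A list of such genes (among them U2af1 and U2af2, the LSM, PTBP, MBNL, CLK and SRPK families, and Sfpq) had 124 tested probe sets of 74 genes. Between ET3x2 and ET3x1, 1 of the 124 fell (0.806%) and none rose, against 1.48% of all tested probe sets called. At an unadjusted p under 0.05 there were 15 of the 124, against 13.1% of all. The called gene was Clk1, a kinase that phosphorylates SR proteins, with a log2 difference of −0.70 on 1399022_at (SE 0.15, adjusted p = 0.0362). Against S none was called in limma, where 0.344% of all were called for ET3x2 and 0.440% for ET3x1. At an unadjusted p under 0.05 there were 16 of the 124 for ET3x2, against 10.9% of all, and 22 for ET3x1, against 11.8% of all. The medians of the list were −0.022 for ET3x2 against ET3x1, −0.053 for ET3x2 against S and −0.039 for ET3x1 against S. Over all tested probe sets they were 0.032, 0.025 and −0.0047 in the same order. The list and the members were not tested against each other.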

How the data were processed

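Kidney RNA of 12 pools, 4 per strain, was read on the Affymetrix arrays RAE230A and RAE230B (24 arrays). The values the authors deposited span 4.97 to 15.24 (RAE230A) and 4.10 to 14.28 (RAE230B) and none is negative, from which they were taken to be log2 signal; summarisation and normalisation by the authors are not given in the sources used here. Column medians lay between 8.50 and 8.61 and between 7.55 and 7.62, and no further scaling was applied. Arrays give no read depth, and their number limits the precision. The 57 control probe sets of each array and those with a mean under the 30th percentile of their array (7.52 and 6.85) were left out. Each array was fitted with limma 3.58.1 in R 4.3.3 (lmFit, eBayes with a trended prior, all 3 strains sharing the spread, no covariate because the labels give no batch). P-values are two-sided and were adjusted with the Benjamini-Hochberg method per array and comparison, with a threshold of 0.05. Pairs of probe sets were fitted in the same way, as the difference within each pool between a probe set and the brightest tested one of its gene, over all genes. The scripts were tested on simulated data. Python 3.11.15 with matplotlib 3.10.9 drew the figures.

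Symbols of the members and of the pairs came from the platform annotation as they stood. Names updated through a RefSeq table of GRCr8 were used besides for the other splicing list and the tissue check. The genes named are the 7 marker genes, every called member and the other probe sets of its gene, the extremes of each role, the members on chromosome 3, the called pairs and the called genes of the other splicing list. The members, roles and lists were chosen with earlier results of these data known. P-values rest on how far pools of separate rats vary. Alternatives were the filter, quantile normalisation, array weights, a prior without a trend, only the strains compared, and leaving out pools.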

Additional observations from a re-analysis of the deposited data

Results flagged for a closer look

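Within a strain, 1 pool stood apart from the other 3 by Dixon's test in 7 of 105 groups of 4 pools, where chance flags about 1 in 20. S pool D was low on Srsf11 1368212_at, at 8.85 against 9.75 to 9.91 in the other S pools. It was also low on Luc7l3 1399018_at, at 10.24 against 10.74 to 10.82, and on Sf3b1 1390234_at, at 10.16 against 10.40 to 10.43. These are the uncalled probe sets of genes with a called one.

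ET3x2 pool K was low on Srrm2 1390048_at, at 9.75 against 10.20 to 10.21 in the other ET3x2 pools. ET3x1 pool G was low on Rbm39 1399101_at, at 9.80 against 10.35 to 10.43, and on Celf1 1393257_at, at 6.85 against 7.16 to 7.21. ET3x2 pool J was high on the same Celf1 probe set, at 7.36 against 7.11 to 7.14.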

How the results depend on the processing

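No call on a named member changed sign in any alternative that tested it, while some uncalled members did (Prpf4b 1382646_at, ET3x1 against S, −0.57 to 0.13). Of the calls, 3 of 5 (ET3x1 against S), 1 of 3 (ET3x2 against S) and 10 of 15 (ET3x2 against ET3x1) passed in every alternative that tested them. For ET3x2 against ET3x1 the 15 called members became 34 with array weights (5 higher, 29 lower) and 11 to 16 when 1 pool was left out, and the 11 pairs became 17 and 7 to 12, with 7 without ET3x2 pool K. In ET3x1 against S the 5 called members became 3 with only ET3x1 and S in the fit and 3 to 6 when 1 pool was left out (3 without C, D, E or H), and the 4 pairs became 2 to 5 (2 without B, C, G or H). In ET3x2 against S the 3 called members became 15 with array weights (1 higher, 14 lower), 5 with the filter at the 50th percentile, 5 with a prior without a trend, 1 with only ET3x2 and S in the fit, and 1 to 10 when 1 pool was left out: 10 without S pool D, 5 without G or J, and 1 without A, C, I or K. The 0 pairs of that comparison became 4 with array weights and 0 to 2 when 1 pool was left out (2 without J, 1 without F or G). The cause of these changes was not tested. Without ET3x2 pool J and S pools A and B together the called members numbered 14 for ET3x2 against ET3x1, 4 in ET3x1 and 2 in ET3x2 against S. No paired analysis was possible because the pools of the 3 strains carry different letters. With 4 pools per strain small differences cannot be told from the spread, and pools hide differences between rats.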
